A study of Rattus norvegicus with 9 samples.

Results

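Kap, the kidney androgen-regulated protein, ranged from 6713 to 41901 normalized reads among replicate samples of a single treatment group of diabetic rats, and replicates at the top and bottom of that range were compared. The groups were chosen by the measured value of Kap alone: of 9 ranked libraries, the 4 highest (replicates 1, 2, 4 and 5, called high-Kap) were set against the 4 lowest (replicates 3, 6, 8 and 9, called low-Kap), and the middle one, replicate 7, is shown but not compared. Of the 18420 genes in the table, 13646 with a mean value of at least 10 were compared. The tissue was renal cortex throughout, from ZDF fa/fa rats with diabetes, a leptin receptor mutant strain with obesity and type 2 diabetes, and all 9 samples carried the treatment label Medical Bypass. The study set that treatment against gastric bypass in experimental diabetic kidney disease. The labels name no drug, dose, time, age, sex or Kap group, and no untreated or gastric bypass samples were analysed here. They also do not say whether the replicates were separate animals, so p-values cover no more than the sample-to-sample spread, part of which may be technical. Because Kap was measured in the same libraries that it split, a difference between the groups is an association with Kap among replicates and not the effect of a condition.

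Kap is made in the proximal tubule, the part of the nephron that takes back most of the filtered load, and in rodent kidney its messenger RNA is known to be raised by androgens. Androgens such as testosterone enter the cell and bind a nuclear receptor, which leaves its heat shock protein partners, binds DNA as a dimer and changes transcription. The rodent proximal tubule is a classical androgen-responsive tissue, in which many transporters and enzymes of drug, steroid and polyamine handling differ between the sexes. Odc1, the rate-limiting enzyme of polyamine synthesis, and Slc7a13, an acidic amino acid and cystine transporter of the late (S3) proximal tubule, are known members of this response. Both were named together with Kap when the comparison was set up, with earlier results of these data known, so neither is independent support for it.

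The promoters of Kap, of Odc1, and of Tff3 and Cacng5, which lead the genes that moved with Kap, are shown because the DNA element of androgen response is built of a pair of arms of the form TGTTCT, or AGAACA on the other strand. Each sequence is the 250 bases before the RefSeq transcription start on the GRCr8 assembly, 5′ to 3′ on the gene's own strand, and capitals mark an exact match to TGTTCT on either strand. Kap lies on the minus strand with its window at chr4:168409033-168409282, Odc1 on the plus strand at chr6:46058415-46058664, Tff3 on the minus strand at chr20:9199334-9199583 and Cacng5 on the minus strand at chr10:93336668-93336917.
Kap: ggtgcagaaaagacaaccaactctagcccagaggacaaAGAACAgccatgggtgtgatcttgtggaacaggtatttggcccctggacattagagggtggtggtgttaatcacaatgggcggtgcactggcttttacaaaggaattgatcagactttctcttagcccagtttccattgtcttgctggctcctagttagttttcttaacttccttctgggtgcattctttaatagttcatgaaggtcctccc
Odc1: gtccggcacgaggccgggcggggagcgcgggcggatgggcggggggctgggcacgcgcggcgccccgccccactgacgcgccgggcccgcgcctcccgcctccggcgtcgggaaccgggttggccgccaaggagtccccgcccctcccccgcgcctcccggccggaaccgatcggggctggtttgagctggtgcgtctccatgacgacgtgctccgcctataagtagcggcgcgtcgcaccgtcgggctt
Tff3: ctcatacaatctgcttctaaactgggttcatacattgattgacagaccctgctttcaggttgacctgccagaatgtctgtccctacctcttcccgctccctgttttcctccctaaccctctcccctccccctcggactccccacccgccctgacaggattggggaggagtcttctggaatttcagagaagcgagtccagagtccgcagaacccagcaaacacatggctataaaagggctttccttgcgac
Cacng5: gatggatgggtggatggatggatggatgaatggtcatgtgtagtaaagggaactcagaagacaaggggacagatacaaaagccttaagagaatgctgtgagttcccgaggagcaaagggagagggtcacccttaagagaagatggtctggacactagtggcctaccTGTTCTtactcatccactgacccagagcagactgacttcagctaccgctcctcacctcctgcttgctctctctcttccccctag
Kap held 1 match, its first base 212 bases before the start, and Cacng5 held 1, its first base 84 bases before the start. The windows of Odc1 and Tff3 held none. An arm of this length is common: it stood in 17.5% of the 33469 RefSeq promoters of this length and in 11.7% of the 9182 tested genes that have one. Of the genes called higher below, 34 had a promoter and 2 of these (5.88%) held the arm. The complete element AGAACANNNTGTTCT stood in 4 of all promoters (0.0120%) and in 0 of those of the tested genes. A match is a description of the letters and not a binding site, and the lack of a match says only that these letters are not in the window.

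Normalized read counts, here gene reads over the size factor of the library, are not corrected for gene length. Kap stood at 28964, 39963, 41901 and 23157 in high-Kap replicates 1, 2, 4 and 5, at 14708 in replicate 7, and at 8259, 7725, 7194 and 6713 in low-Kap replicates 3, 6, 8 and 9. The low-Kap replicates lay close together, whereas the high-Kap replicates were spread widely and replicate 7 lay between the groups. The members nearest the borders were thus replicate 5 at 23157 and replicate 3 at 8259, on either side of replicate 7. Kap took 0.0973% to 0.193% of the reads in genes in the high-Kap replicates and 0.0307% to 0.0386% in the low-Kap replicates. These values chose the groups and are given without a test.

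Library measures overlapped between the groups. Reads in genes numbered 27772400 ± 6678020 (SD, n = 4) in the high-Kap and 25200400 ± 14512600 in the low-Kap replicates (two-sided exact permutation p = 0.743), and over all 9 they ran from 10757440 to 43071223. Reads aligned to more than 1 place made up 18.3% ± 3.03 (SD, n = 4) of counted reads in the high-Kap and 16.2% ± 1.47 in the low-Kap replicates (exact permutation p = 0.257). All 6 measures tested, which also covered the size factor, reads outside genes, ambiguous reads and genes with a read, had an adjusted p of 0.743, and since the smallest p that 4 against 4 can give is 0.0286, a single differing measure could not pass after this adjustment. With the share of multi-aligned reads as a covariate, the count of higher genes given below went from 49 to 115. Replicates 1 to 3 stood apart from replicates 4 to 9 in the clock repressor Nr1d1, at 1309 to 1346 against 110.1 to 242.6. Replicates 1 and 2 were high-Kap and replicate 3 was low-Kap, so this split crosses the comparison without being balanced in it.

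**Figure D1:**
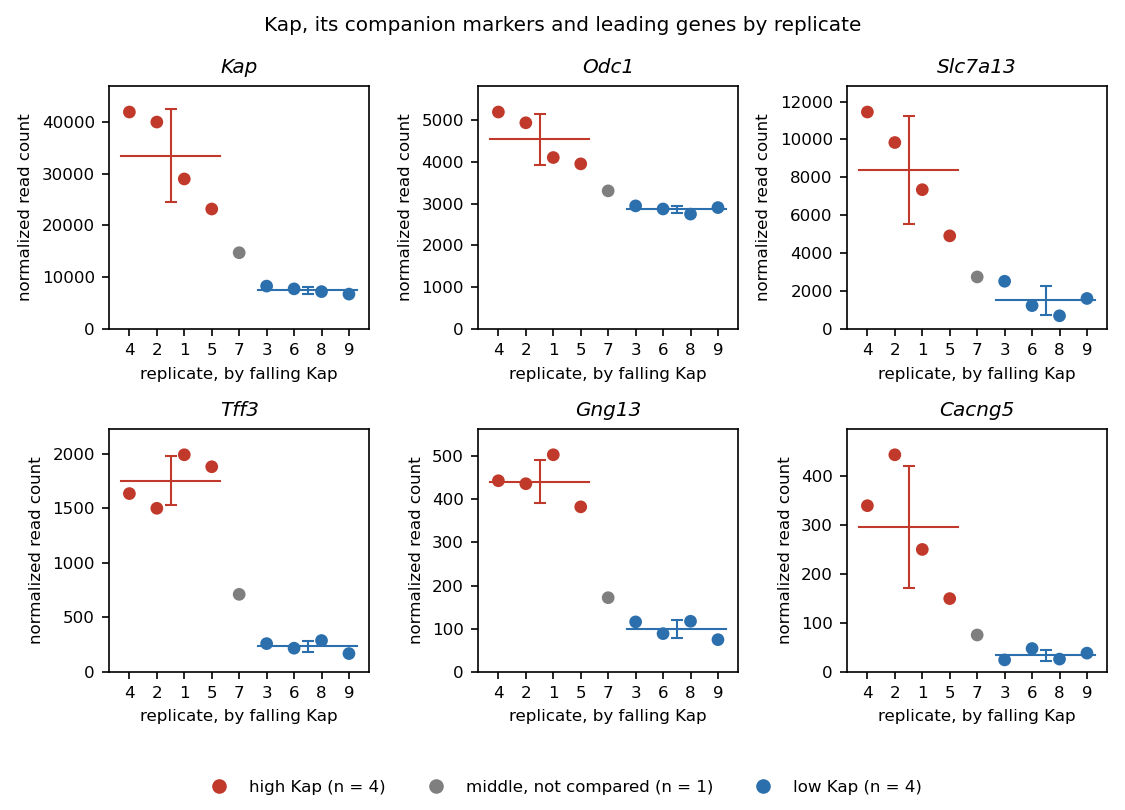
Normalized read count of Kap, Odc1, Slc7a13, Tff3, Gng13 and Cacng5 (vertical axes, linear, from 0) in each replicate ordered by falling Kap (horizontal axes); points are single libraries, lines the mean of 4 and bars 1 SD. In every panel the 4 high-Kap replicates lie above the 4 low-Kap ones and replicate 7 lies between the groups, as with Tff3 at 709. In the Kap panel this order is by construction.

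High-Kap replicates carried more RNA of 49 genes and less of none that passed the test. These were 49 genes higher (0.359% of those tested) and 0 lower (0%) with limma at a Benjamini-Hochberg adjusted p under 0.05. At an unadjusted p under 0.05 the counts were 462 higher (3.39%) and 234 lower (1.71%), and the 4 and 4 values did not overlap for 298 higher (2.18%) and 99 lower (0.725%). The log2 differences of the 49 ran from 0.92 to 3.04 with a median of 1.58, against a median of -0.0049 over all genes tested, and 48 of them were above 2-fold and 13 above 4-fold. In replicate 7, which took no part in the fit, 29 of the 49 lay between the groups, 20 within or below the low-Kap range and 0 within or above the high-Kap range. In a bulk sample, fewer cells of a type and less RNA per cell cannot be told apart. On the same samples edgeR called 48 higher and 0 lower, and DESeq2 122 and 5. The count moved with the libraries used. Leaving out replicate 1 gave 8 genes higher, replicate 2 gave 21, replicate 4 gave 15, replicate 6 gave 13 and replicate 9 gave 18. Leaving out replicate 3 gave 43, replicate 5 gave 61 and replicate 8 gave 42. Of the 49, 8 passed in all 8 such fits. With replicates 4 to 9 alone, where 2 high-Kap libraries remain, none of 13646 passed. None of the 49 overlapped between the groups, so their direction could not change when libraries were left out.

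**Figure D2:**
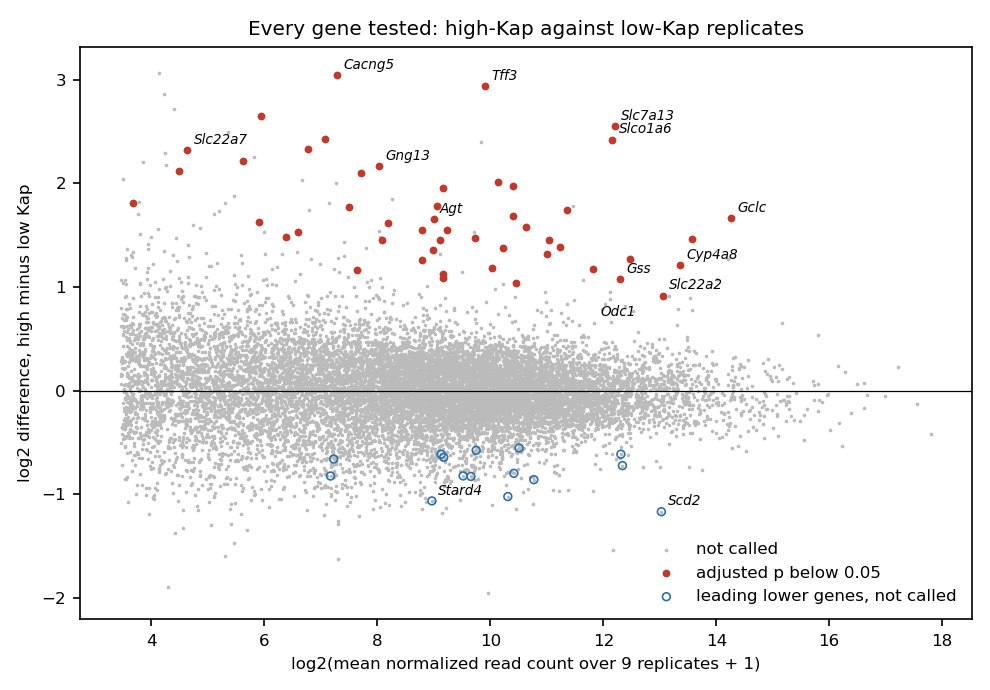
Log2 difference between high-Kap and low-Kap replicates (vertical axis) against the mean level of each of 13646 genes as log2 of the mean normalized read count plus 1 (horizontal axis); red points passed the adjusted test and open circles are the leading lower genes, none of which passed. The 49 red points all lie above 0, from 0.92 to 3.04.

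Tff3, a secreted trefoil peptide of mucosal surfaces and epithelia, differed most reliably. Its values were 1990, 1499, 1634 and 1880 in replicates 1, 2, 4 and 5, 709 in replicate 7, and 257, 215, 285 and 165 in replicates 3, 6, 8 and 9. The lowest high-Kap value was several times the highest low-Kap value, with replicate 7 between. Tff3 rose by 2.94 ± 0.20 on the log2 scale (SE; limma adjusted p = 0.000166), and it passed whichever replicate was left out. Unlike Kap, Tff3 was not highest where Kap was highest: within the high-Kap replicates its order was 1, 5, 4, 2.

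Gng13, a gamma subunit of heterotrimeric G proteins, stood at 504, 437, 444 and 383 in the high-Kap replicates 1, 2, 4 and 5, at 172 in replicate 7 and at 115, 88.2, 117 and 74.2 in the low-Kap replicates 3, 6, 8 and 9. The groups lay far apart with little spread within either, and the log2 difference was 2.17 ± 0.21 (SE; limma adjusted p = 0.00174). Cacng5, a gamma subunit of the voltage-gated calcium channel family, was scarce in the low-Kap replicates, at 23.9, 47.2, 25.6 and 37.7, and reached 250, 444, 339 and 149 in the high-Kap replicates, with 74.9 in replicate 7. Its order within the high-Kap replicates was near that of Kap, replicate 5 being lowest in both. Its log2 difference of 3.04 ± 0.35 (SE; limma adjusted p = 0.00536) had the largest size among the 49.

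Transporters were among the genes with the lowest adjusted p. Slc23a3, an orphan member of the ascorbate transporter family, had 1121, 1036, 821 and 818 in the high-Kap, 397 in the middle and 241, 294, 252 and 193 in the low-Kap replicates. Slc5a10, the SGLT5 carrier of mannose and fructose in the proximal tubule, had 3544, 3176, 2749 and 2851 in the high-Kap, 2074 in the middle and 1170, 1330, 1091 and 910 in the low-Kap replicates. Neither overlapped between groups, and replicates 1 and 2 were the highest in both genes. Slc23a3 rose by 1.95 ± 0.19 (SE) on the log2 scale (limma adjusted p = 0.00174). For Slc5a10 it was 1.46 ± 0.16 (SE; limma adjusted p = 0.0044). Mlc1, a membrane protein best known from astrocytes, rose by 1.77 ± 0.19 (SE; limma adjusted p = 0.00353) on the log2 scale. Nkd2, an inhibitor of Wnt signalling, rose by 1.55 ± 0.17 (SE; limma adjusted p = 0.00378). With Tff3, Gng13, Cacng5 and one gene known only by an Ensembl identifier, ENSRNOG00000030182, these 4 made up the 8 genes that passed in every fit with a replicate left out.

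The other 8 of the 15 leading higher genes included enzymes and secreted proteins. Acss2, which makes acetyl-CoA from acetate, had 7807, 10310, 8788 and 6440 in the high-Kap, 4329 in the middle and 3625, 3236, 3448 and 3343 in the low-Kap replicates. Its low-Kap values were nearly equal, as those of Kap were, and its log2 difference was 1.27 ± 0.17 (SE; limma adjusted p = 0.0125). The call of Acss2 held in 4 of 8 fits with a replicate left out. Rgn, the calcium-binding lactonase regucalcin, rose by 1.68, Cidec, a lipid droplet protein, by 1.36, and Aspg, an asparaginase, by 2.02 on the log2 scale. Tgfbi, a secreted matrix protein, rose by 1.55 and Sspo, encoding SCO-spondin, by 2.42. Akr1c12l1, an aldo-keto reductase, rose by 1.98 and Cyp2d5, a cytochrome P450, by 1.61, but both have near-identical relatives and reads aligned to more than 1 place were counted apart, so their levels are uncertain. The limma adjusted p of these 8 ran from 0.0079 to 0.0127.

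**Figure D3:**
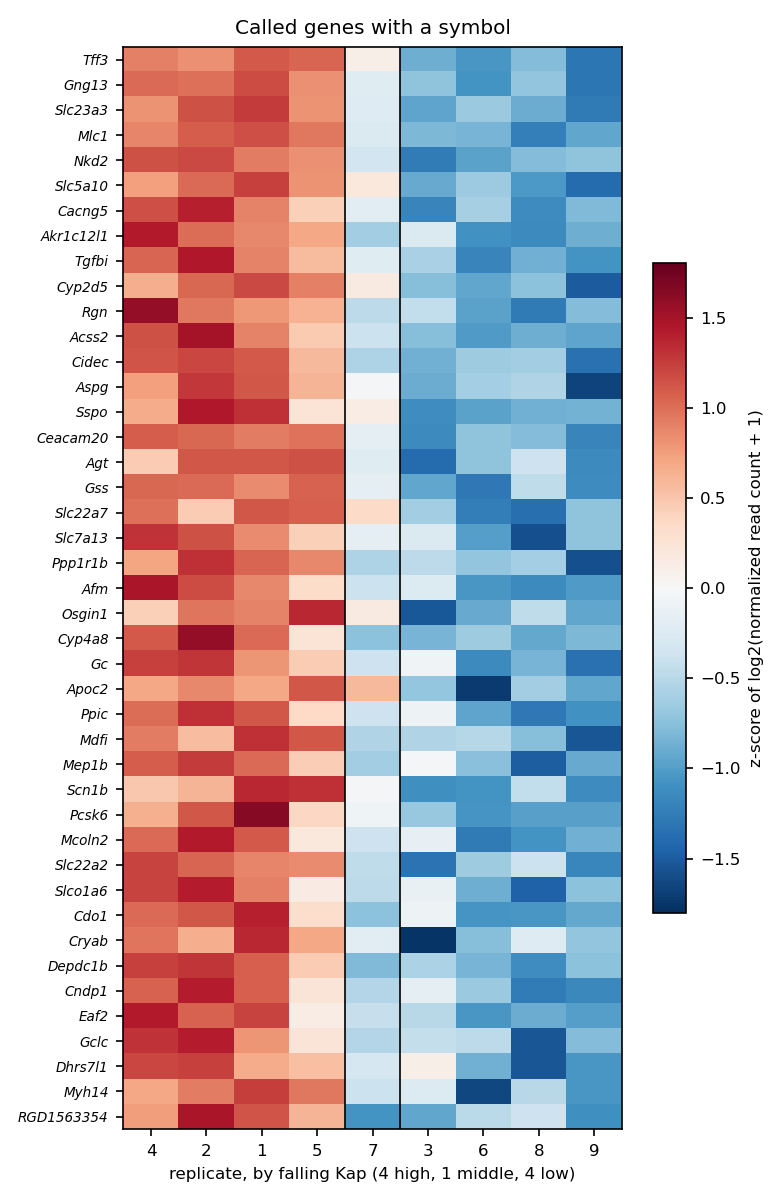
The 43 called genes that have a symbol (rows, by rising adjusted p) in the 9 replicates ordered by falling Kap (columns); colour is the z-score of log2 normalized read count plus 1 over the 9 replicates, red above and blue below the gene's mean. Every row is red in the 4 high-Kap columns, and replicate 7 in the middle column is mostly pale or blue.

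Odc1, the companion of Kap by name, was among the 5 genes that followed it most closely, of those with a symbol and a mean of at least 100, yet missed the adjusted test. It had 4110, 4944, 5202 and 3958 in the high-Kap replicates 1, 2, 4 and 5, 3310 in replicate 7 and 2950, 2876, 2753 and 2909 in the low-Kap replicates 3, 6, 8 and 9. The order of the first 5 replicates was that of Kap itself, and the groups did not overlap. The log2 difference was 0.66 ± 0.15 (SE; limma adjusted p = 0.161). It missed in 17 of 20 alternatives, with limma adjusted p from 0.12 to 0.599 when a replicate was left out and 0.909 in replicates 4 to 9 alone. Odc1 passed with the share of multi-aligned reads as a covariate (limma adjusted p = 0.0139), with a slope on log2 Kap over 9 replicates (limma adjusted p = 0.0281) and with DESeq2 (adjusted p = 0.00363). Pearson's r with log2 Kap over the 9 replicates was highest for Acss2, Odc1, Tgfbi, Cacng5 and Gng13, in that order, at 0.97 to 0.98, and these are descriptions over 9 libraries that share 1 scaling and include those chosen by Kap, with no test.

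Slc7a13 moved more than Odc1 did. It had 7348, 9839, 11449 and 4911 in the high-Kap replicates 1, 2, 4 and 5, 2740 in replicate 7, and 2512, 1226, 689.7 and 1604 in the low-Kap replicates 3, 6, 8 and 9. The order within the high-Kap replicates was that of Kap, while the low-Kap replicates spread more widely than they did for Kap. Slc7a13 rose by 2.55 ± 0.37 on the log2 scale (SE; limma adjusted p = 0.0163). The call was lost without replicate 1 (adjusted p = 0.105), 4 (0.0791), 6 (0.0822) or 9 (0.0598) and in replicates 4 to 9 alone (0.328).

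Proximal tubule genes known to respond to androgens or to differ between the sexes in rodents did not all move in 1 direction. Of 22 in the list, 20 were matched and 19 tested, of which 5 rose (0.359% of all genes did), 0 fell, and 8 were higher without overlap (2.18% of all genes were). The differences were above 0 for 12 and below 0 for 7, with a median log2 difference of 0.08. The list was not sorted by the direction of the known response, so these signs are a description only. The mean log2 value of the tested members was 11.81 to 12.26 in the high-Kap and 11.32 to 11.63 in the low-Kap replicates, while their summed values overlapped. Odc1 and Slc7a13 are among the tested members, and both were higher without overlap. They were named with Kap when the comparison was set up, so these counts and means are not independent of its markers. No value without them was calculated. The 5 were Slc7a13 and 4 others that carry or oxidize organic compounds. Slco1a4 had too few reads to be tested, and Cyp4b1 and Adh1 were not matched.

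Slco1a6, an organic anion transporter, had 7435, 12115, 9963 and 3558 in the high-Kap, 1928 in the middle and 2701, 1305, 736 and 1484 in the low-Kap replicates. Replicate 5, the lowest high-Kap library, was also the lowest of its group here and lay near replicate 3. Slco1a6 rose by 2.42 ± 0.42 on the log2 scale (SE; limma adjusted p = 0.0447), with reads shared among near-identical Slco1a copies uncertain. Slco1a1, its close relative, had 122, 256, 403 and 149 in the high-Kap, 72.9 in the middle and 109, 73.1, 26.7 and 54.7 in the low-Kap replicates. Its groups just failed to meet, between 109 and 122, and its log2 difference of 1.81 ± 0.46 (SE) did not pass (limma adjusted p = 0.28).

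Slc22a2, the organic cation transporter OCT2 of the basolateral membrane, had 10880, 11547, 12187 and 10807 in the high-Kap, 6944 in the middle and 5166, 6511, 7098 and 5431 in the low-Kap replicates. Both groups were tight, and replicate 7 fell with the low-Kap libraries. Slc22a2 rose by 0.92 ± 0.16 on the log2 scale (SE; limma adjusted p = 0.0425). Slc22a7, the organic anion transporter OAT2, was scarce, at 47.3, 26.4, 42.2 and 45.4 in the high-Kap, 24 in the middle and 9.95, 5.47, 4.89 and 9.11 in the low-Kap replicates. The groups were far apart for so low a gene, and the log2 difference was 2.32 ± 0.33 (SE; limma adjusted p = 0.0139). Its low-Kap mean of 7.36 would not alone have passed the filter of 10, so its place among the tested genes depended on its higher values. Without a filter on low values the limma adjusted p of Slc22a7 was 0.0134. Slc22a12, the urate exchanger URAT1, did not overlap between groups, with 4352 to 6810 against 2192 to 4036, but its log2 difference of 0.96 ± 0.22 (SE) did not pass (limma adjusted p = 0.178).

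Cyp4a8, a fatty acid hydroxylase, had 15374, 19886, 15980 and 10719 in the high-Kap, 6743 in the middle and 6428, 7048, 6189 and 6529 in the low-Kap replicates. The low-Kap replicates and replicate 7 were nearly level. The log2 difference was 1.21 ± 0.19 (SE; limma adjusted p = 0.0319), and reads shared with other Cyp4a genes make it uncertain. Cyp4a2, a more abundant member with near-identical relatives, had a log2 difference of 0.23 (limma adjusted p = 0.759). Leaving out one replicate ended the call in 7 of 8 fits for Slc22a2 and in 6 for Cyp4a8, 5 for Slco1a6 and 3 for Slc22a7.

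The other members of the list overlapped between the groups. Gusb, beta-glucuronidase, whose induction by androgen is well known in mouse kidney, stood at 582, 569, 570 and 645 in the high-Kap and 585, 524, 606 and 522 in the low-Kap replicates. The groups were interleaved, with a log2 difference of 0.08 ± 0.15 (SE; limma adjusted p = 0.861). The medium-chain acyl-CoA synthetase gene Acsm3 differed by -0.02, the oxysterol hydroxylase gene Cyp7b1 by 0.05 and Tmem27, collectrin, by -0.08 on the log2 scale. Slc22a6 and Slc22a8, the main organic anion carriers OAT1 and OAT3, differed by -0.25 and -0.17. Cyp2e1, a cytochrome P450 that oxidizes small solvents, differed by -0.29, Timd2 by -0.42 and Slc16a14, of the monocarboxylate transporter family, by -0.79. None of these 9 passed, with limma adjusted p from 0.755 to 0.973.

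**Figure D4:**
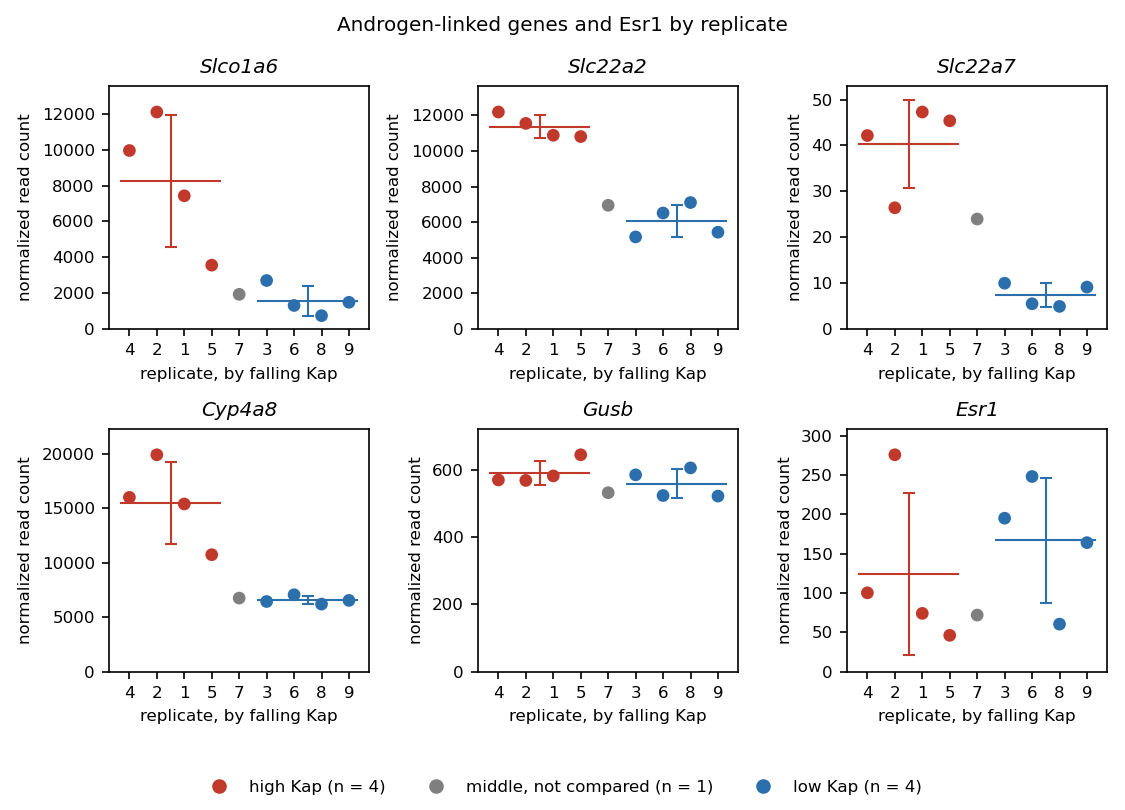
Normalized read count (vertical axes, linear, from 0) of the androgen-linked genes Slco1a6, Slc22a2, Slc22a7, Cyp4a8 and Gusb and of Esr1 in each replicate ordered by falling Kap (horizontal axes); lines are means of 4 and bars 1 SD. The 3 transporters and Cyp4a8 part the groups, Gusb is level between 522 and 645, and Esr1 is high in replicates 2, 3, 6 and 9, which lie in both groups.

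Esr1, the oestrogen receptor alpha, did not follow Kap. It stood at 74, 276, 100 and 46.1 in the high-Kap replicates 1, 2, 4 and 5, at 71.9 in replicate 7 and at 195, 248, 60.4 and 164 in the low-Kap replicates 3, 6, 8 and 9. It was high in replicates 2, 3, 6 and 9 and lower in the other 5, a split that crosses the Kap groups. The log2 difference was -0.58 ± 0.55 (SE; limma adjusted p = 0.776). The same 4 replicates had the lowest shares of reads aligned to more than 1 place, 14.9% to 15.8% against 16.8% to 22.1% in the others. With that share as a covariate the Esr1 difference turned to 0.25 (limma adjusted p = 0.995).

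Of a list of steroid receptors and steroid enzymes, 16 of 21 genes were tested and 0 passed in either direction. Of all genes tested, 0.359% were called higher and 0% lower. In the list 7 lay above 0 and 9 below, and the median log2 difference was -0.10. Srd5a1, which makes dihydrotestosterone from testosterone, differed by -0.15 ± 0.19 (SE; limma adjusted p = 0.818). Srd5a3, of the same family, differed by 0.28 ± 0.20. Sts, which frees steroids from their sulphates, differed by 0.55 ± 0.23 and Hsd17b2, which oxidizes testosterone and oestradiol, by -0.59 ± 0.26 (SE; limma adjusted p = 0.755 for each). Hsd17b7, which acts in oestradiol and cholesterol synthesis, was the single member whose groups did not overlap (0.725% of all genes were lower without overlap). It stood at 66.8 to 127 in the high-Kap and 169 to 191 in the low-Kap replicates (log2 difference -0.82, limma adjusted p = 0.427). Cyp17a1, the enzyme that makes androgen precursors, averaged 53.8 ± 23.6 (SD, n = 4) and 73.1 ± 37.2 (SD, n = 4), a log2 difference of -0.46 ± 0.43 (SE). Srd5a2, Hsd17b3 and Hsd17b14 were below the mean of 10.

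Chaperones and coactivators that work with steroid receptors held 0 called of 15 tested, near the 0.359% of all genes called higher. In this list 3 lay above 0 and 12 below, with a median log2 difference of -0.30. Hsp90aa1, a chaperone that holds unbound steroid receptors, differed by -0.76 ± 0.29 and Hsp90ab1 by -0.30 ± 0.21 (SE; limma adjusted p = 0.755 for each), the second at 0.03 in replicates 4 to 9 alone. Androgen targets best known from prostate and other tissues gave 1 called gene of 15 (0.359% of all genes were called higher) and a median of -0.08. That gene was Eaf2, a transcription elongation factor partner, with 106, 96.3, 121 and 53.4 in the high-Kap, 37.9 in the middle and 35.8, 25.3, 27.7 and 26 in the low-Kap replicates. Its low-Kap values were level and replicate 5 was again the lowest of the high-Kap libraries. The log2 difference was 1.63 ± 0.29 (SE; limma adjusted p = 0.0492), and the call held in 1 of 8 fits with a replicate left out.

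Genes of polyamine metabolism other than Odc1 held 0 called of 20 tested, near the 0.359% of all genes called higher. The log2 differences lay above 0 for 14 and below 0 for 6, with a median of 0.17. Agmat, which splits agmatine to putrescine, had 1614, 1401, 1290 and 1942 in the high-Kap, 1339 in the middle and 571, 833, 1114 and 618 in the low-Kap replicates. The groups did not overlap, and the log2 difference was 1.03 ± 0.23 (SE; limma adjusted p = 0.148). Oat, ornithine aminotransferase, was the other member without overlap, at a log2 difference of 0.50 (limma adjusted p = 0.755). Of all genes tested, 2.18% were higher without overlap. Eif5a, the protein that carries the polyamine-derived amino acid hypusine, differed by 0.08 ± 0.24 (SE).

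Other hormone axes that act on the proximal tubule gave 0 called genes, near the 0.359% of all genes called higher. The thyroid hormone list had a median of -0.30 over 10 tested genes and the growth hormone and prolactin list -0.06 over 10. Stat5a, which carries prolactin and growth hormone signals, was the single member of either that did not overlap (2.18% of all genes were higher without overlap). Its log2 difference was 0.69 ± 0.25 (SE; limma adjusted p = 0.755).

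Marker genes of the late proximal tubule moved in part with Kap. Of 12 S3 markers tested, 2 rose (0.359% of all genes did), 5 were higher without overlap (2.18% of all genes were), and the median log2 difference was 0.30. Their summed value was 114503 to 165957 in the high-Kap, 110103 in the middle and 91938 to 107876 in the low-Kap replicates, so the sums did not overlap. The called members were Agt and Mep1b. Agt, angiotensinogen, the precursor of the angiotensin peptides, had 864, 869, 577 and 882 in the high-Kap, 382 in the middle and 185, 280, 346 and 215 in the low-Kap replicates. Its log2 difference was 1.65 ± 0.23 (SE; limma adjusted p = 0.0127), and replicate 4, the highest in Kap, was the lowest of the high-Kap libraries here. Mep1b, the brush border protease meprin beta, had 2553, 2976, 2673 and 1781 in the high-Kap, 912 in the middle and 1320, 846, 533 and 763 in the low-Kap replicates. Its log2 difference was 1.58 ± 0.26 (SE; limma adjusted p = 0.037), with replicate 3 nearest the other group. With a replicate left out, the call held in 5 of 8 fits for Agt and in 3 for Mep1b.

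The other S3 markers without overlap did not pass. Ggt1, gamma-glutamyl transferase of the brush border, differed by 0.90 ± 0.19 (SE; limma adjusted p = 0.115). Slc6a18, a neutral amino acid transporter, differed by 0.79 ± 0.17 (SE; limma adjusted p = 0.113). Slc3a1, the heavy chain that carries cystine transporters to the membrane, differed by 0.65 ± 0.20 (SE; limma adjusted p = 0.559). Below 0 stood Slc5a8 at -0.62, Slc5a1 at -0.26, Atp11a at -0.25, Slc1a1 at -0.15 and Slc7a9 at -0.11 on the log2 scale, so the S3 list did not move in 1 direction.

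Markers of the earlier proximal tubule (S1 and S2) had 0 called of 18 tested, near the 0.359% of all genes called higher. Of these, 2 lay above 0 and 16 below, with a median of -0.25. The mean log2 value of this list was lowest in replicate 1, at 12.75. It was 13.56 to 13.75 in the other high-Kap replicates and 13.58 to 13.95 in the low-Kap ones, so replicate 1 weighs on these signs. Slc34a1, the phosphate carrier, differed by 0.18 ± 0.26 (SE). The thick ascending limb list had 0 called of 6, 5 above 0 and a median of 0.40, and its summed value was 84331 to 114009 in the high-Kap and 61059 to 71580 in the low-Kap replicates. Umod, uromodulin, which makes up most of that sum, had 84097, 62739, 60463 and 66296 in the high-Kap, 52678 in the middle and 44954, 50595, 51458 and 40353 in the low-Kap replicates. Its groups did not overlap, with a log2 difference of 0.54 ± 0.18 (SE; limma adjusted p = 0.722). The summed S3 and thick ascending limb markers thus parted the groups, but sums weigh abundant genes most. The mean log2 value of the tested S3 markers overlapped, at 11.81 to 12.41 in the high-Kap and 11.54 to 11.86 in the low-Kap replicates. That of the thick ascending limb overlapped too, at 10.88 to 11.40 and 10.64 to 11.06. The part of these markers in the called genes was not tested.

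**Figure D5:**
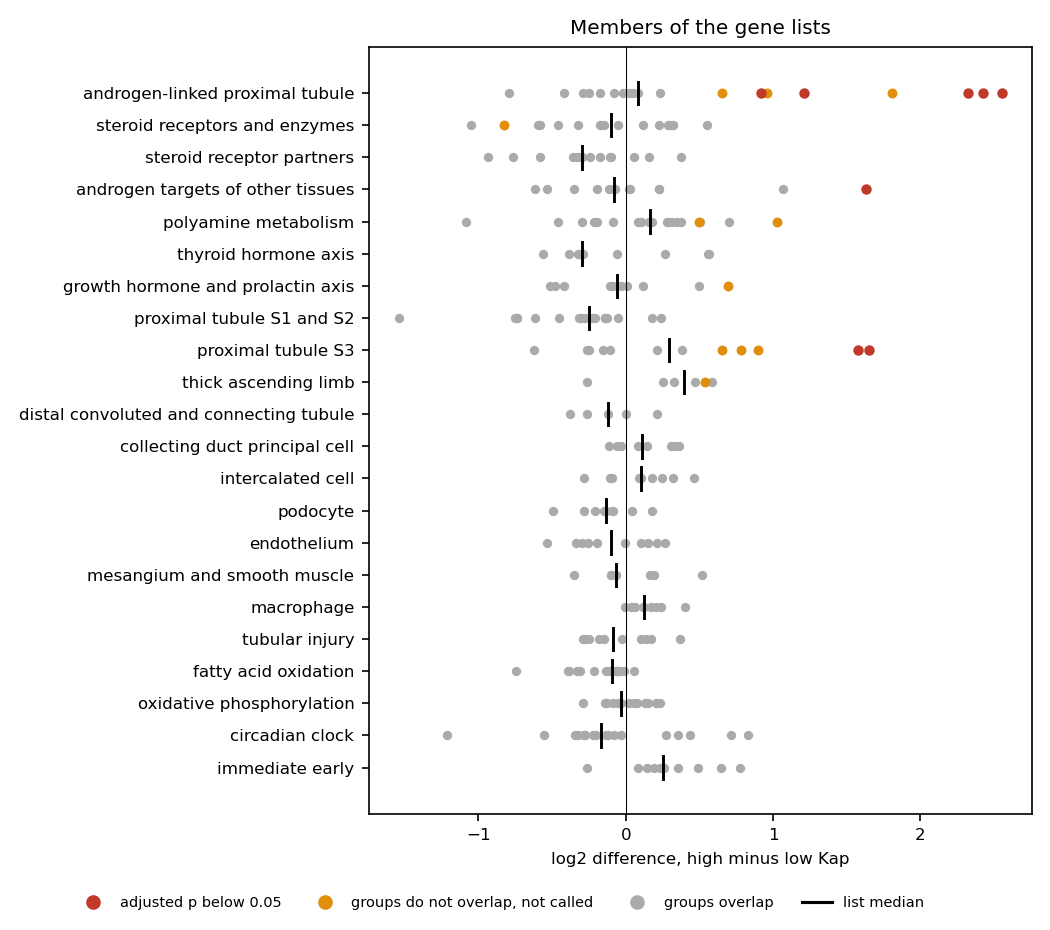
Log2 difference between high-Kap and low-Kap replicates (horizontal axis) of each tested member of 22 gene lists with more than 1 tested member (rows); red points passed the adjusted test, orange points did not overlap between groups without passing, grey points overlapped, and black bars are list medians. Red points are in the androgen-linked (5), S3 (2) and other-tissue androgen target (1) rows.

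Markers of other cells stayed near 0. Median log2 differences were -0.12 for the distal convoluted and connecting tubule (5 tested), 0.11 for principal cells (8), 0.10 for intercalated cells (9), -0.13 for podocytes (9), -0.10 for endothelium (10), -0.07 for mesangium and smooth muscle (7) and 0.13 for macrophages (9). Summed marker values overlapped between the groups for each of these 7 lists, as with 7838 to 9729 in the high-Kap and 6497 to 9418 in the low-Kap replicates for macrophages. Of the lymphocyte list only Cd4 could be tested (log2 difference 0.27). Tubular injury markers had a median of -0.09 over 10 genes, fatty acid oxidation genes -0.09 over 17 with 16 below 0, and respiratory chain genes -0.03 over 17. The mean log2 value of the fatty acid oxidation genes was lowest in replicate 1, at 13.42. It was 14.03 to 14.09 in the other high-Kap replicates and 13.97 to 14.21 in the low-Kap ones, so these signs rest largely on 1 library. Clock genes had a median of -0.17 over 18 and immediate early genes 0.25 over 11 with 10 above 0. None of these 13 lists held a called gene, where 0.359% of all genes were called higher.

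Glutathione and sulphur amino acid genes were among the 49, and the genes in the next sentences were chosen after their values were seen. Gss, glutathione synthetase, had 6515, 6951, 6965 and 7072 in the high-Kap, 4402 in the middle and 3290, 2872, 3950 and 3047 in the low-Kap replicates. The high-Kap values were nearly equal, and the log2 difference was 1.07 ± 0.15 (SE; limma adjusted p = 0.0127). Gclc, the catalytic subunit of the rate-limiting enzyme of glutathione synthesis, had 27594, 41460, 38557 and 18883 in the high-Kap, 11473 in the middle and 12242, 11869, 5844 and 9701 in the low-Kap replicates. Its order within the high-Kap replicates was close to that of Kap, and the log2 difference was 1.66 ± 0.30 (SE; limma adjusted p = 0.0492). Cdo1, which starts the breakdown of cysteine, rose by 1.19 ± 0.21 (SE; limma adjusted p = 0.0447), and Cndp1, which splits the dipeptide carnosine, by 1.32 ± 0.23 (SE; limma adjusted p = 0.0462). Leaving out a replicate ended the call of Gclc in 7 of 8 fits and that of Gss in 5. The calls of Cdo1 and Cndp1 each held in 2 of 8 such fits.

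Genes for binding proteins and signalling were also called and are likewise named after their values were seen. Gc, the vitamin D-binding protein, had 302, 454, 430 and 229 in the high-Kap, 116 in the middle and 149, 61.5, 79.4 and 52.1 in the low-Kap replicates. Its groups parted between 149 and 229, and it rose by 2.10 ± 0.34 (SE; limma adjusted p = 0.0343). Afm, the vitamin E-binding afamin, rose by 1.47 ± 0.23 (SE; limma adjusted p = 0.0288) and Ppp1r1b, the phosphatase inhibitor DARPP-32, by 1.46 ± 0.22 (SE; limma adjusted p = 0.0181). With a replicate left out, the calls of Gc and Afm each held in 3 of 8 fits and that of Ppp1r1b in 4. Mdfi, an inhibitor of myogenic transcription factors, was the single called gene that passed in none of the fits with a replicate left out, at 25.6 to 48.3 against 3.91 to 10.2. As with Slc22a7, its low-Kap mean (8.07) would not alone have passed the filter of 10.

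Genes lower with Kap did not pass the test in limma, and those described here were picked from the leading 15 after their values were seen. Stard4, a cholesterol carrier of the cytosol, had 215, 436, 373 and 284 in the high-Kap and 625, 896, 437 and 780 in the low-Kap replicates. Replicate 8 at 437 and replicate 2 at 436 all but met, and the log2 difference was -1.06 ± 0.27 (SE; limma adjusted p = 0.303). Scd2, a stearoyl-CoA desaturase, had 6470, 3187, 4338 and 6722 in the high-Kap and 8128, 18130, 7434 and 14003 in the low-Kap replicates. Replicates 6 and 9 stood highest in both Scd2 and Stard4, and the log2 difference of Scd2 was -1.17 ± 0.33 (SE; limma adjusted p = 0.404).

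Other leading lower genes were Hsd17b7, given above, and 11 more with log2 differences from -0.55 to -1.02 and limma adjusted p from 0.373 to 0.755. Slc15a1, the peptide transporter PEPT1, had 299, 619, 514 and 591 in the high-Kap and 850, 921, 826 and 854 in the low-Kap replicates, with 1121 in replicate 7, above both groups (log2 difference -0.82). Acmsd, which steers tryptophan breakdown away from NAD, differed by -0.86 ± 0.28, Dgkg, a diacylglycerol kinase, by -1.02 ± 0.29, and Fgb, the fibrinogen beta chain, by -0.64 ± 0.19 (SE). The 5 lower genes that DESeq2 called on the recovered reads included Stard4, Scd2 and Mob3b.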

How the data were processed

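Messenger RNA of 9 kidney cortex samples was sequenced after stranded library preparation, per the labels' protocols. Tools listed in the submitters' processing notes are HTSeq 0.6.1p1, DESeq2, FastQC 0.11.2 and MultiQC 0.9, with the build Rnor_5.0, and the aligner is not given in the sources used here. In 1 deposited table the authors give a signal, the read counts per gene over a size factor. All values lay within 0.1 read of a whole number once divided by the value of 1 read (0.544 to 1.99), so read counts were recovered from the deposited signal. Of 18423 rows, 3 named no gene (reads outside genes, ambiguous or aligned to more than 1 place) and stayed out of tests; they held 28.0% outside genes on average in the high-Kap and 30.0% in the low-Kap replicates. The table held 2364 rows known only by an Ensembl identifier and 4 whose name repeats, and hyphens were restored in 43 symbols. It gives no positions, and promoters came from RefSeq.

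Samples were grouped by Kap, without using any other gene. Genes with a mean of at least 10 were compared as log2(value + 1), which understates changes of low genes, with limma 3.58.1 in R 4.3.3 (6 residual degrees of freedom, trended robust prior). The code was tested on simulated data. Named genes were the androgen-linked and steroid lists, the 15 leading genes each way among symbols with a mean of at least 100 and no overlap, the 5 highest and 5 lowest r with Kap, and the 2 most abundant and any called members of the other lists (some results are not reported here). The comparison, its members and the 24 lists were chosen with earlier results of these data known. Alternatives were pseudocounts of 0.5 and 5, no filter, a minimum mean of 100, TMM and equal-total scaling, covariates, each replicate left out, replicates 4 to 9 alone, a slope on Kap, edgeR 4.0.16 and DESeq2 1.42.0. Depth averaged 26045365 ± 9955332 reads in genes (SD, n = 9).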

Additional observations from a re-analysis of the deposited data

Results flagged for a closer look

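Among 116 genes and library measures checked over the 9 replicates, 4 had 1 replicate far from the rest, and chance gives about 1 in 20 such groups. Replicate 1, a high-Kap library, gave 3 of them. Hsd11b2, the cortisol-inactivating enzyme of the collecting duct, stood at 15356 there against 8803 in the next highest replicate. Scnn1a, a subunit of the epithelial sodium channel, stood at 4150 against 3052. Ehhadh, a peroxisomal fatty acid oxidation enzyme, stood lowest at 38439 against 72267 in the next lowest. Replicate 5 had the lowest share of reads outside genes, 22.0% against 27.2% in the next lowest.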

How the results depend on the processing

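All 49 genes kept their direction in the 20 alternatives, in which 41 were tested with a minimum mean of 100. Where libraries were left out this was fixed beforehand, because none of the 49 overlapped between the groups. In replicates 4 to 9 alone all 49 had a limma unadjusted p under 0.05, but those libraries had helped to choose them. The count of higher genes was 0 there and ranged from 8 to 61 with 1 replicate left out. It was 115 with the share of multi-aligned reads as a covariate and 122 with DESeq2. The other settings gave 33 to 66, with 48 by edgeR and 34 after scaling to the same total. The count of lower genes was 0 in most settings, 0 to 2 with 1 replicate left out (Mib1 and Coa5, without replicate 8) and 5 with DESeq2. The median of the androgen-linked list moved from 0.08 to 0.34 in replicates 4 to 9 alone. The cause of these changes was not tested. No paired analysis was possible because all 9 samples carry 1 label and the Kap groups share no replicate number. Library depth, from 10757440 to 43071223 reads in genes, bounds the precision of scarce genes such as Slc22a7 and Mdfi.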

Other observations

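The labels do not state sex. Of the Y-linked genes listed, only Ddx3y was matched to the data, and Xist was not matched. Ddx3y was at 0 in 5 replicates and at 0.732 to 1.99 in the other 4, near the value of 1 read in those libraries. With the other listed Y-linked genes and Xist unmatched, sex cannot be told from these values and was not tested.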
